A study of Rattus norvegicus with 25 samples.

Results

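The potassium channel genes are the rows of the BLA (basolateral amygdala) and DG (hippocampal dentate gyrus) tables whose gene name, ignoring case, starts with Kcn followed by a subfamily letter, auxiliary subunits included, and whose mean TPM (a transcript level corrected for gene length and library size) was at least 1 over all control libraries of the region. Of 25360 gene names, 94 were Kcn names, of which 77 reached the minimum in BLA tissue and 74 did so in DG tissue. In all, 73 were members in both regions, 78 in at least 1 region, and 16 were under the minimum in both. Kcng3, Kcnj5, Kcnk6 and Kcne4 were members in the BLA only and Kcnh8 in the DG only. Just inside the minimum were Kcnj5 (1.3 TPM) in the BLA and Kcne3 (1.16 TPM) in the DG, and just outside it were Kcnn4 (0.560 TPM) in the BLA and Kcng3 (0.965 TPM) in the DG. The Kcnn4 value rests on 1 library that is left out of the tests below (2.55 TPM), and its mean over the other 6 BLA controls was 0.228 TPM. Kcna10 and Kcne1 were listed at 0 in every DG library.

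Bulk RNA was sequenced from left-hemisphere tissue punches of both regions, taken from adult male wild-type Sprague-Dawley rats. Stress-exposed rats had been immobilized once for several hours with fox urine as predator scent, and controls had stayed in the home cage. Stress-exposed animals from the low and the high end of a composite score of anxiety-like behavior, measured about a week after stress, formed the stress-low and stress-high groups. Control libraries carried low or high labels as well, and both kinds were used as 1 control group. The tests compared 6 BLA or 5 DG control libraries with 3 stress-low and 3 stress-high ones, after 1 control library that stood apart on the first principal component was left out in each region.

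Each library came from 1 animal, and most animals gave a library of both regions. Animals were chosen from the ends of the behavioral range, so the stress groups do not stand for stressed rats in general. The stress-low animals all had numbers above 20 and the stress-high animals had 7, 19 and 20, so that a difference between these groups cannot be told apart from one in animal number except through the controls. The labels of animal 35 disagree for its BLA sample (control in the library name, stress as treatment), which was used as a control. Library totals ranged from 12709493 to 22801247 expected counts for BLA and from 11656439 to 19477932 for DG, and every DG stress-high library was larger than every DG stress-low library. Prox1, which marks dentate granule cells, was at 29.9 to 95.5 TPM in DG libraries and at 2.03 to 3.39 TPM in BLA libraries. In bulk tissue, fewer cells of a type and less RNA per cell cannot be told apart.

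Potassium channels let potassium ions leave the cell and so set the resting potential, repolarize the action potential and limit repetitive firing. Voltage-gated subunits (Kv1 to Kv4, Kv7 and the EAG group) open with depolarization, inward rectifiers (Kir) and tandem-pore channels (K2P) act near rest, and the BK, SK and Slack channels open with intracellular calcium or sodium. Silent Kv subunits (Kcnf, Kcng, Kcns and Kcnv genes) form no channel alone and change the properties of Kv2 channels, and auxiliary subunits such as KChIPs, Kv beta, KCNE and BK beta alter the trafficking or gating of the pores they join. In granule cells of the DG, A-type currents, Kir channels and BK channels with a beta subunit are known to keep firing sparse. In principal neurons of the BLA, SK, BK and Kv7 channels are known to shape spike-frequency adaptation.

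The promoters of the silent Kv subunits with the widest difference between regions are shown, because this family held both the member that was lowest in the DG relative to the BLA and the member that was highest. Each line gives the 250 bases before the annotated start from RefSeq (build GRCr8, not the build of the expression tables), 5′ to 3′ on the strand of the gene, with GGGCGG or its reverse complement CCGCCC, the core of a GC box, in capitals. Kcnf1 lies on the minus strand at chr6:45693707-45693956, Kcng3 on the plus strand at chr6:16803592-16803841 and Kcng2 on the minus strand at chr18:76083689-76083938.
Kcnf1: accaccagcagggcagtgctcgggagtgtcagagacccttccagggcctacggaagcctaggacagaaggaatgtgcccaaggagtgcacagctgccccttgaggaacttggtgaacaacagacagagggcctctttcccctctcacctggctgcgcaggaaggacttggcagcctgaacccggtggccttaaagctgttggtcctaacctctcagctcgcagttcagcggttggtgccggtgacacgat
Kcng3: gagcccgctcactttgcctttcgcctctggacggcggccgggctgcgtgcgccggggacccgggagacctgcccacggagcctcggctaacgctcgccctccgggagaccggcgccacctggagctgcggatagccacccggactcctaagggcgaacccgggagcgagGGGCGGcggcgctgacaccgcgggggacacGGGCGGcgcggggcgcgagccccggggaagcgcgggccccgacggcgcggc
Kcng2: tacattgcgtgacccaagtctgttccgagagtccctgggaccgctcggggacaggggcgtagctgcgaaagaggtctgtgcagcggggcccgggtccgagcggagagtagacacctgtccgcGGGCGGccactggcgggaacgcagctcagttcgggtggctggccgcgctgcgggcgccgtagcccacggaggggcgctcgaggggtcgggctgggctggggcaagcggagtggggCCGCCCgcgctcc
GC content was 59.6% with 8 CpG in Kcnf1, 78.4% with 39 CpG in Kcng3 and 72.8% with 29 CpG in Kcng2. A promoter was found for 50 of the 78 members. GGGCGG, searched on both strands, was in 56.0% of these 50 and in 32.4% of all 27457 promoters, and the median GC content was 65.0% against 52.0%. TATAAA and TGACGTCA were in none of the 50 and in 13.1% and 1.70% of all promoters, and CACGTG was in 4% against 5.80%. The 27457 promoters were not limited to genes that reached the TPM minimum, so these shares are not matched for expression. The motifs are matches of letters in a window and were not tied to binding.

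In control animals the summed TPM of all members was 1901 ± 120 (SD, n = 6) in the BLA and 2954 ± 108 (SD, n = 5) in the DG. The auxiliary subunit Kcnab2 (Kv beta) was the most abundant member in both regions, at 151 ± 14.1 TPM in the BLA and 401 ± 45.8 TPM in the DG. Other abundant members in the BLA were the KChIP Kcnip2 at 87.8 ± 6.67 TPM, Kcnq3, a Kv7 subunit of the M current, at 72.1 ± 9.89 TPM and the silent subunit Kcnf1 at 67.2 ± 7.28 TPM. In the DG, Kcnip2 was at 298 ± 22.6 TPM and the Kv4 subunit Kcnd2 at 120 ± 7.99 TPM. The levels of Kcnq3 and Kcnf1 in the BLA overlapped within their SD. The median member was at 11.7 TPM in the BLA and 14.9 TPM in the DG, and 24 and 18 members were under 5 TPM.

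By family, Kir (12 members), Kv7 (4), KChIP (4) and Kv beta (3) each held between 11.3% and 11.5% of the summed member TPM in BLA controls. In DG controls Kv beta held 16.3%, Kir 13.8%, KChIP 13.2% and Kv3 12.2%. KCNE genes and the regulator Kcnrg were at the low end in both regions, with 0.428% and 0.224% of the BLA sum, against 0.343% and 0.0697% of the DG sum. Top members of other BLA families were Kcna6 (Kv1), Kcnc4 (Kv3), Kcnd2 (Kv4), Kcnh3 (EAG), Kcnj4 (Kir), Kcnk1 (K2P), Kcnn2 (SK), Kcnma1 (BK), Kcnmb4 (BK beta), Kcnt1 (Slack) and Kcne1l (KCNE). In the DG the leading gene differed in, among others, Kv1 (Kcna1), Slack (Kcnt2), KCNE (Kcne2) and the silent Kv family (Kcng1 at 98.9 ± 12.6 TPM). Across the 78 members the Spearman rho of the control means of both regions was 0.839, a description over genes that share libraries and are not independent.

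**Figure D1:**
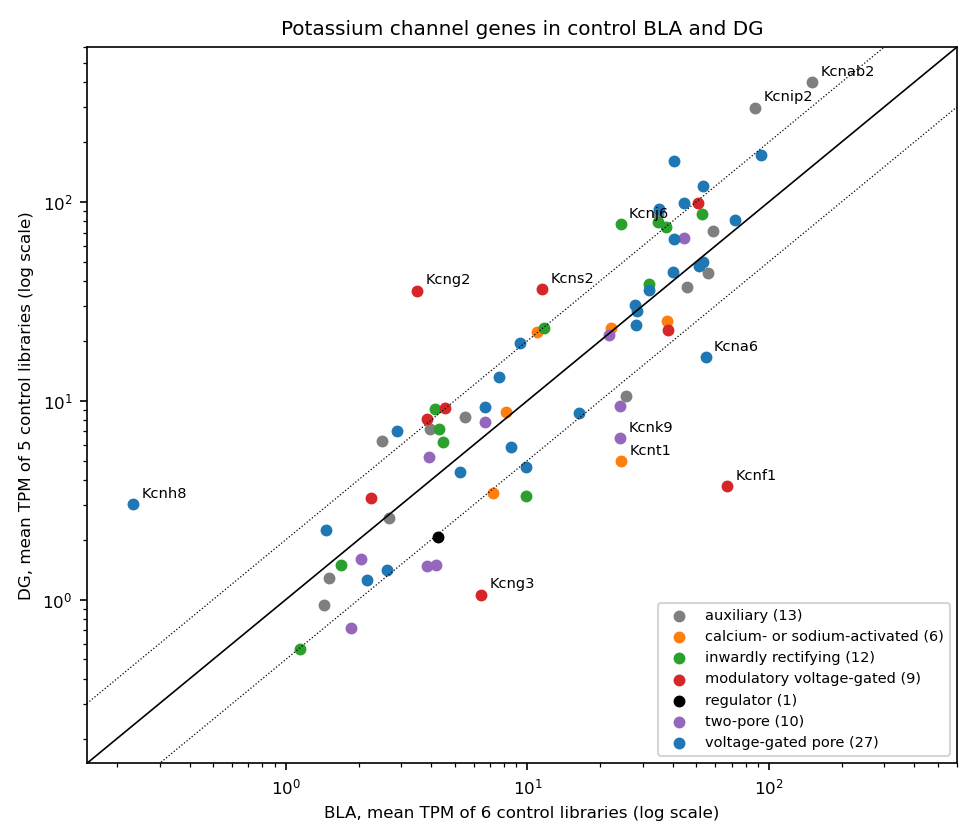
Mean TPM of the 78 potassium channel genes in 6 control BLA libraries (x axis, log scale) and 5 control DG libraries (y axis, log scale), coloured by class, with the line of equality and dotted lines at a ratio of 2. Kcnf1 and Kcng3 lie farthest below the line and Kcng2 and Kcnh8 farthest above it, while most auxiliary genes with high TPM lie above it.

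The coefficient of variation of TPM had a median of 12.2% over BLA members and 11.6% over all 14145 names with a mean of at least 1 TPM, and 12.5% over DG members and 10% over 13317 names. Kcnc1 (4.52%) in the BLA and Kcnc2 (2.97%) in the DG, both Kv3 subunits, were the steadiest. The widest were Kcnj5 (63.4%) and Kcne3 (53.0%) in the BLA and Kcne1l (55.5%) and Kcnj8 (49.6%) in the DG, all of them under 3 TPM on average.

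Between the regions, 55 of the 73 genes that were members in both differed in control animals: 36 were higher in the DG and 19 were lower. The 5 members of 1 region only had to be high in that region to be members, so they are left out of these counts and are described without a test. The comparison was paired over the 4 control animals with a used library of both regions, with limma on log2(TPM + 0.5), which understates the ratio of low genes. Over all 14473 names tested, 41.7% were called higher in the DG and 22.8% lower, beside 49.32% and 26.03% of the 73. The names tested had to reach 1 TPM in either region and the 73 did so in both, so the shares are not matched for level. The median log2 ratio of all names was 0.16 and that of the 73 was 0.20. With all values centred on the median of all names, 31 of them were higher and 22 lower (42.5% and 30.1%, beside 32.5% and 31.6% of all names), with Kcnj10, Kcnj14, Kcns1 and Kcnk10 among those no longer called higher and Kcnip3, Kcnh1 and Kcnq5 newly called lower. Each of their differences over 1 on the log2 scale kept its direction and its call with centring. BLA and DG libraries were quantified with different effective lengths (50 bases under the gene length in the BLA and 261 to 274 in the DG), so that region and library preparation cannot be told apart.

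Of the 8 silent Kv subunits that were members in both regions, 6 were higher in the DG and 2 lower. The genes with the largest ratio each way among the shared members, Kcnf1 and Kcng2, were in this family. Kcnf1 was at 56.9 TPM in the lowest, 69.6 in the median and 74.8 in the highest of 6 BLA controls, and at 2.55, 3.26, 3.34, 3.65 and 5.74 TPM in the 5 DG controls. The ranges lie far apart, and the log2 ratio of DG to BLA was -3.94 (SE 0.12, limma adjusted p = 1.85e-08). Kcng2 ran the other way, from 2.10 TPM in the lowest and 3.37 in the median to 5.13 in the highest BLA control, against 27.7, 33.5, 38.4, 38.6 and 40.3 TPM in the DG, a log2 ratio of 3.35 (SE 0.16, limma adjusted p = 2.24e-07). Kcng3, a member in the BLA only, was at 6.45 ± 0.939 TPM in the BLA and 1.06 ± 0.409 TPM in the DG. Kcns2 was at 11.5 ± 1.14 TPM in the BLA and 36.3 ± 3.37 TPM in the DG (log2 ratio 1.65, SE 0.08). Kcng1, Kcng4, Kcns1 and Kcns3 were higher in the DG by log2 ratios of 0.44 to 0.998, and Kcnv1 was lower (-0.74, SE 0.07). Of their usual partners, the Kv2 pores, Kcnb2 was lower in the DG (-0.54, SE 0.13).

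**Figure D2:**
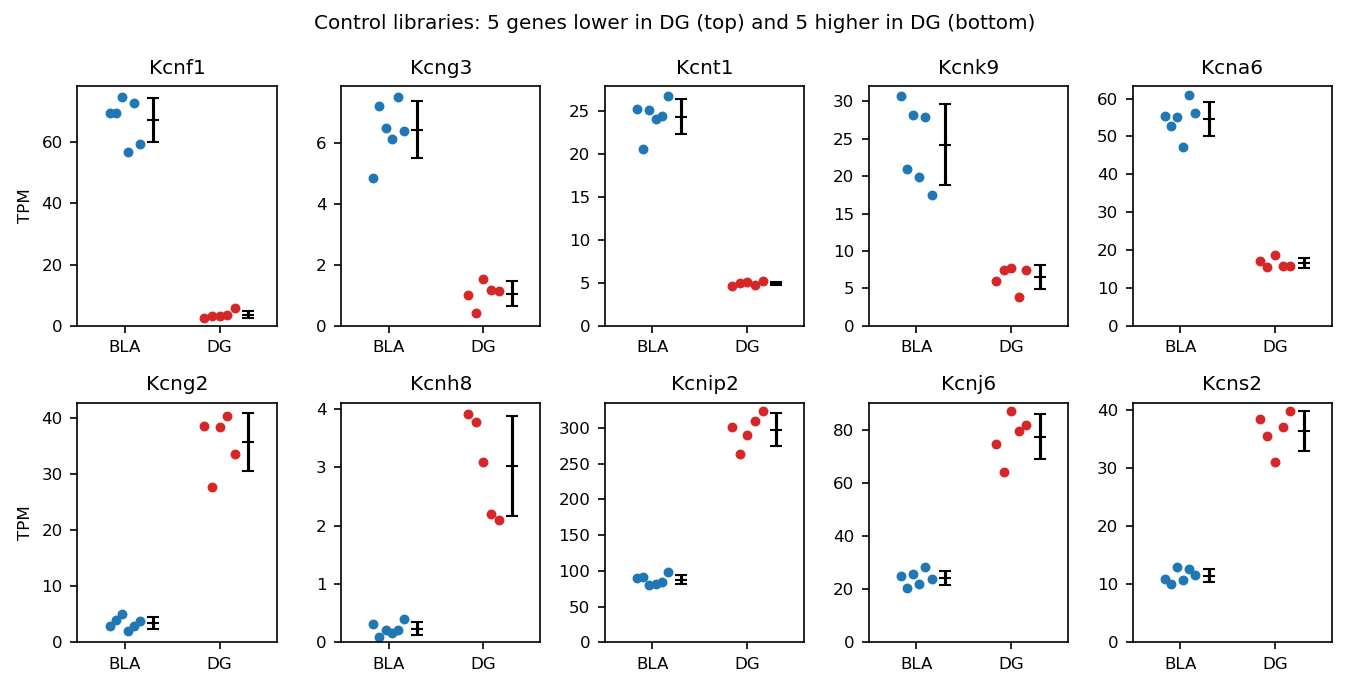
TPM of 10 potassium channel genes in each control library of the BLA (6 blue points) and the DG (5 red points), with the mean and SD of each region as a black bar; the axes start at 0. In each of these 10 genes the libraries of both regions do not overlap, with the top row lower and the bottom row higher in the DG; Kcng3 and Kcnh8 are members in 1 region only.

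Among the voltage-gated pores, the Kv3 and Kv4 genes, which carry fast delayed-rectifier and A-type currents, were higher in the DG or not called. Kcnc4 (1.15, SE 0.12), Kcnc1 (0.67, SE 0.07), Kcnd2 (1.20, SE 0.09) and Kcnd1 (0.45, SE 0.11) were higher, while Kcnc2 (95% interval -0.03 to 0.34) and Kcnd3 (-0.03 to 0.39) were not called.

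The Kv1 family, which acts in axons and their terminals, was split. Kcna6 was lower in the DG, at 54.6 ± 4.53 TPM in the BLA and 16.6 ± 1.34 TPM in the DG (log2 ratio -1.68, SE 0.09), and so was Kcna5 (-0.62, SE 0.19). Kcna1, at 35.0 ± 2.22 and 91.7 ± 5.72 TPM, was higher (1.42, SE 0.07), as were Kcna3 (0.84) and Kcna4 (1.17). Kcna2 was at 28.3 ± 3.25 TPM in the BLA and 28.4 ± 3.60 TPM in the DG and was not called (log2 ratio 0.01, 95% interval -0.23 to 0.25).

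Of the Kv7 genes, neither Kcnq3 (95% interval -0.13 to 0.40) nor Kcnq5 (-0.30 to 0.09) was called between the regions. Of the 7 EAG genes that were members in both regions, Kcnh4 was higher in the DG, Kcnh2, Kcnh6 and Kcnh7 were lower, and 3 were not called. Kcnh8, a member in the DG only, was between 0.1 and 0.4 TPM in BLA controls and at 3.92, 3.78, 3.10, 2.20 and 2.09 TPM in DG controls, and it rested on 3 to 19 expected counts in the BLA libraries. Kcnh4 was at 2.87 ± 0.749 and 7.04 ± 1.47 TPM (1.24, SE 0.19).

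Inward rectifiers were mostly higher in the DG, with 9 of the 11 shared members higher, 1 lower and 1 not called. The G-protein gated Kcnj6 was at 20.6 TPM in the lowest, 24.5 in the median and 28.4 in the highest BLA control, and at 74.7, 64.3, 87.0, 79.6 and 81.8 TPM in the DG. The ranges do not overlap, and the log2 ratio was 1.68 (SE 0.11, limma adjusted p = 2.28e-06). The other subunits of this group, Kcnj3 (1.18, SE 0.07) and Kcnj9 (0.89, SE 0.09), were higher as well, as was Kcnj11, the pore of the ATP-sensitive channel (1.03, SE 0.11). Kcnj16 was the lower one (-1.44, SE 0.13), at 9.86 ± 2.49 TPM in the BLA and 3.32 ± 0.264 TPM in the DG. Kcnj10, the main Kir of astrocytes, was at 31.7 ± 2.28 and 38.5 ± 4.04 TPM (0.31, SE 0.08). The summed TPM of 4 astrocyte markers was 493.3 to 569.3 in BLA controls and 713 to 1130 in DG controls, and its part in the Kcnj10 difference was not tested.

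Tandem-pore channels had more members that were lower than higher, with 4 of the 9 shared members lower in the DG, 2 higher and 3 not called. Kcnk9, an acid-sensitive leak channel, lay between 17.5 and 30.7 TPM in BLA controls and at 6.06, 7.43, 7.75, 3.84 and 7.41 TPM in DG controls (log2 ratio -1.86, SE 0.14). Kcnk2, a mechano-sensitive one, was at 24.1 ± 3.64 and 9.35 ± 1.96 TPM (-1.40, SE 0.13). Kcnk15 (-1.13, SE 0.17) and Kcnk3 (-1.08, SE 0.17) were also lower. Kcnk1 was higher in the DG (0.60, SE 0.08), and Kcnk4 was at 21.7 ± 2.66 and 21.4 ± 2.27 TPM and was not called (95% interval -0.30 to 0.16).

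The sodium-activated pair split between the regions. Kcnt1 was at 24.4 ± 2.06 TPM in the BLA and 4.95 ± 0.209 TPM in the DG (log2 ratio -2.12, SE 0.10), and Kcnt2 was at 10.9 ± 1.62 and 22.2 ± 1.58 TPM (0.95, SE 0.12). The BK pore Kcnma1 was lower in the DG (-0.57, SE 0.09), while its beta subunits were higher, with Kcnmb4 at 34.7 ± 3.21 and 87.0 ± 7.18 TPM (1.32, SE 0.08) and Kcnmb2 at a log2 ratio of 0.89 (SE 0.13). Of the SK genes only Kcnn3 was called, lower in the DG (-0.998, SE 0.14), with Kcnn1 and Kcnn2 at intervals of -0.18 to 0.34 and -0.32 to 0.22.

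Among the 12 auxiliary subunits that were members in both regions, 7 were higher in the DG, 2 lower and 3 not called. Kcnip2, which raises Kv4 surface levels, was between 80.3 and 98.1 TPM in BLA controls and at 302, 263, 291, 309 and 323 TPM in DG controls. All DG values exceeded all BLA values, and the log2 ratio was 1.76 (SE 0.08, limma adjusted p = 2.32e-07). Kcnip1 was lower (-1.14, SE 0.13), as was Kcnip4 (-0.29, SE 0.10). Kcnab2 (1.38, SE 0.08), Kcnab3 (0.76, SE 0.12) and Kcnab1 (0.36, SE 0.07) were higher. Kcne2, a gene that is also strong in choroid plexus, was at 2.51 ± 0.974 TPM in the BLA and 6.27 ± 2.31 TPM in the DG. The 6 choroid plexus markers summed to at most 1.39 TPM in any BLA library used and 0.4 TPM in any DG one. Of these 6, 2 were at 0 in every BLA library and 1 in every DG library. The part of choroid plexus in the Kcne2 values was not tested.

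A list of 29 genes for known partners of these channels was read in the same test. Of the 23 that could be tested, 10 were higher and 8 lower in the DG. Over all 14473 names tested, 41.7% were called higher and 22.8% lower. Dpp10, an auxiliary subunit of Kv4, was 57.2 to 77.5 TPM in BLA controls and 8.19 to 13.3 TPM in DG controls (log2 ratio -2.49, SE 0.10), while Dpp6, its relative, was higher (0.58, SE 0.07). Lgi1, a secreted ligand in the Kv1 complex, was higher (1.20, SE 0.07) and the scaffold Dlg1 lower (-1.50, SE 0.09). Abcc8, the partner of Kcnj11, was higher (1.24, SE 0.10), as was the BK gamma subunit Lrrc55 (1.71, SE 0.16). Among the related HCN channels, Hcn4 (-2.47, SE 0.18) and Hcn3 (-0.88, SE 0.10) were lower and Hcn2 (0.58, SE 0.07) higher.

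The comparisons between control, stress-low and stress-high animals found no member at an edgeR adjusted p under 0.05 in either region. The count was 0 in each of the 6 comparisons, for 77 members in the BLA and for the 73 of 74 DG members that passed the low-count filter (Kcne3 did not), and it was also 0 over all 14953 BLA and 13850 DG names (0% in each). At an unadjusted p under 0.05 there were 2 members in the BLA between stress-low and stress-high (2.6%, beside 1.91% of all names), 0 between control and stress-low (2.69% of all names) and 3 between control and stress-high (3.90%, beside 2.53%). In the DG there were 4 (5.48%, beside 3.16%), 3 (4.11%, beside 7.01%) and 0 (2.23% of all names) in the same order. DESeq2 also called no member in any of them, and over all names it called 0 in each BLA comparison and 2, 2 and 3 in the DG. The median log2 fold change of the members, as the second group over the first, was 0.05, -0.03 and 0.03 for BLA members, against 0.03, 0.003 and 0.03 for DG members, and that of all names lay within 0.003 of 0. The 95% interval of the fold change lay inside a doubling and a halving for 70, 71 and 75 of 77 BLA members and for 66, 68 and 70 of 73 DG members, and its median half-width was 0.25 to 0.29 on the log2 scale.

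**Figure D3:**
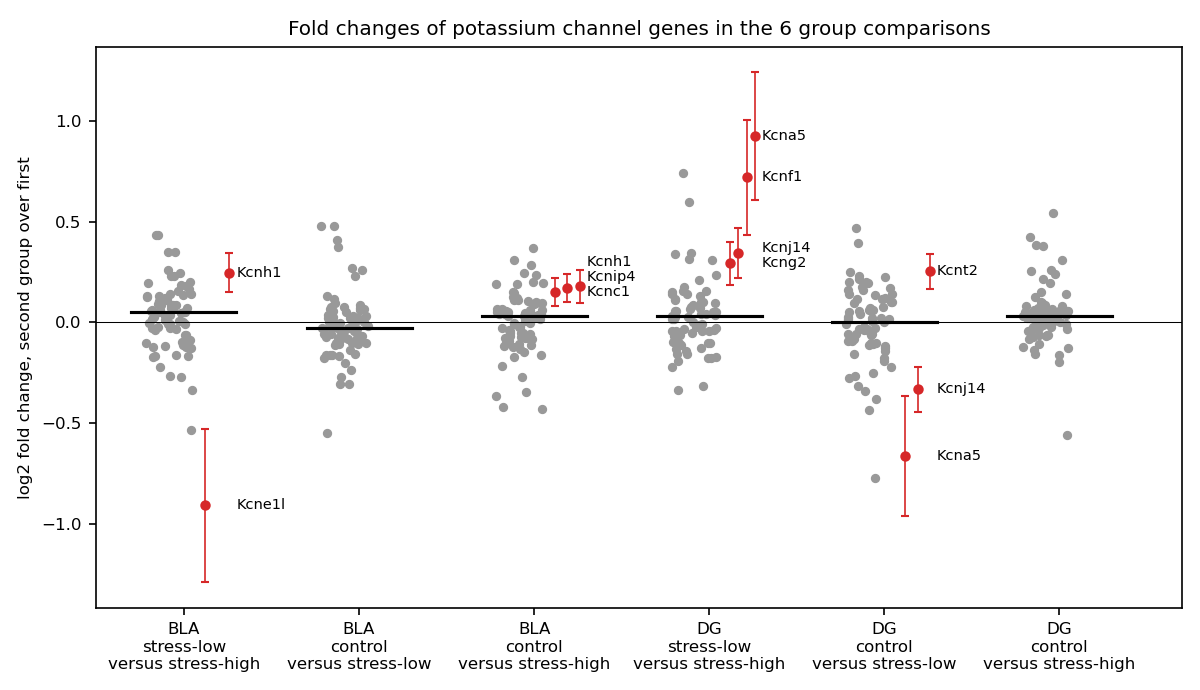
Log2 fold changes (second group over the first, edgeR) of 77 BLA and 73 DG potassium channel genes in the 6 group comparisons. Grey points are genes at an unadjusted p of at least 0.05, red points with SE bars the named genes under it, and black lines the medians, which lie between -0.03 and 0.05; none had an adjusted p under 0.05.

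Family sums of TPM were read without a test. The sum over all members moved little, while some single families moved more. The summed TPM of all members was 1901 ± 120, 1904 ± 58.6 and 1920 ± 229 in control, stress-low and stress-high BLA, and 2954 ± 108, 2897 ± 14.1 and 2920 ± 66.9 in the DG. Kv7 genes, which carry the M current, summed to 218 ± 18.6, 213 ± 10.4 and 213 ± 35.0 TPM in the BLA and to 303 ± 17.7, 295 ± 10.3 and 292 ± 15.0 TPM in the DG. Tandem-pore genes in the DG summed to 121 ± 6.74, 116 ± 1.49 and 127 ± 2.30 TPM. The Slack pair in the DG summed to 27.1 ± 1.69, 31.1 ± 1.68 and 27.9 ± 2.86 TPM. The KCNE genes summed to 10.1 ± 3.56, 5.52 ± 1.91 and 7.65 ± 1.38 TPM in the DG, lowest in stress-low.

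In the DG, the members with the smallest p between stress-low and stress-high were Kcna5, Kcnj14, Kcng2 and Kcnf1, none of them past the adjusted threshold. Kcna5, a Kv1 subunit, was at 1.14, 0.860 and 0.610 TPM in stress-low, at 2.29, 1.31 and 1.41 TPM in stress-high and at 1.41, 1.22, 1.32, 1.63 and 1.43 TPM in controls. The stress-low values lie under all the others, on 9 to 38 expected counts a library. The log2 fold change from stress-low to stress-high was 0.92 (SE 0.32, edgeR adjusted p = 0.999). Kcnj14, an inward rectifier, was at 4.90, 4.79 and 4.85 TPM in stress-low, 6.83, 5.64 and 5.95 TPM in stress-high and 5.30 to 7.12 TPM in controls. It too was lowest in the stress-low animals (0.34, SE 0.12, edgeR adjusted p = 0.999).

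Kcng2, the silent subunit that was higher in the DG than in the BLA, was at 32.0, 32.2 and 34.5 TPM in stress-low and 42.6, 40.1 and 37.6 TPM in stress-high, while controls ran from 27.7 to 40.3 TPM and overlapped both groups (0.29, SE 0.11, edgeR adjusted p = 0.999). Kcnf1 was at 2.64, 4.04 and 2.18 TPM in stress-low and 4.39, 4.28 and 5.66 TPM in stress-high, with controls at 2.55 to 5.74 TPM (0.72, SE 0.29, edgeR adjusted p = 0.999). Without stress-high animal 7 the fold changes of Kcna5, Kcnj14, Kcng2 and Kcnf1 were 0.62, 0.24, 0.23 and 0.76. Kcnk1 (0.14, SE 0.07) and Kcnk2 (0.34, SE 0.17) followed, with p above 0.05. In TPM the 2 stress groups did not overlap for 9 of 74 members (12.2%, beside 8.52% of the 13317 names compared), 8 of them higher in stress-high: Kcna5, Kcnf1, Kcng2, Kcnip1, Kcnj14, Kcnj2, Kcnk1 and Kcne1l. Kcnh7 was the lower one. With 3 against 3 libraries, the smallest p that an exact two-sided permutation test can give is 0.1.

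Between control and stress-low DG, Kcnt2, a sodium-activated channel gene, was at 20.9, 24.1, 23.7, 21.0 and 21.2 TPM in controls and 26.4, 24.3 and 27.9 TPM in stress-low. The groups did not overlap, though the lowest stress-low value lay close to the highest control, and the log2 fold change was 0.25 (SE 0.09, edgeR adjusted p = 0.709). For Kcnj14 the log2 fold change was -0.33 (SE 0.11) and for Kcna5 it was -0.66 (SE 0.30), both at an edgeR adjusted p of 0.709. In TPM these 3 of 74 members did not overlap between the groups (4.05%, beside 3.69% of all names). The comparison shares its stress-low libraries with the one between the stress groups, and so the low values of Kcna5 and Kcnj14 are the same in both. Kcnip4 (0.25), Kcne2 (-0.77) and Kcns3 (0.22) came next. Between control and stress-high DG no member was under an unadjusted p of 0.05, and the smallest were those of Kcng2 (0.19, SE 0.09), Kcns2 (-0.16) and Kcnj2 (0.38). No member separated these groups in TPM (1.43% of all names did).

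**Figure D4:**
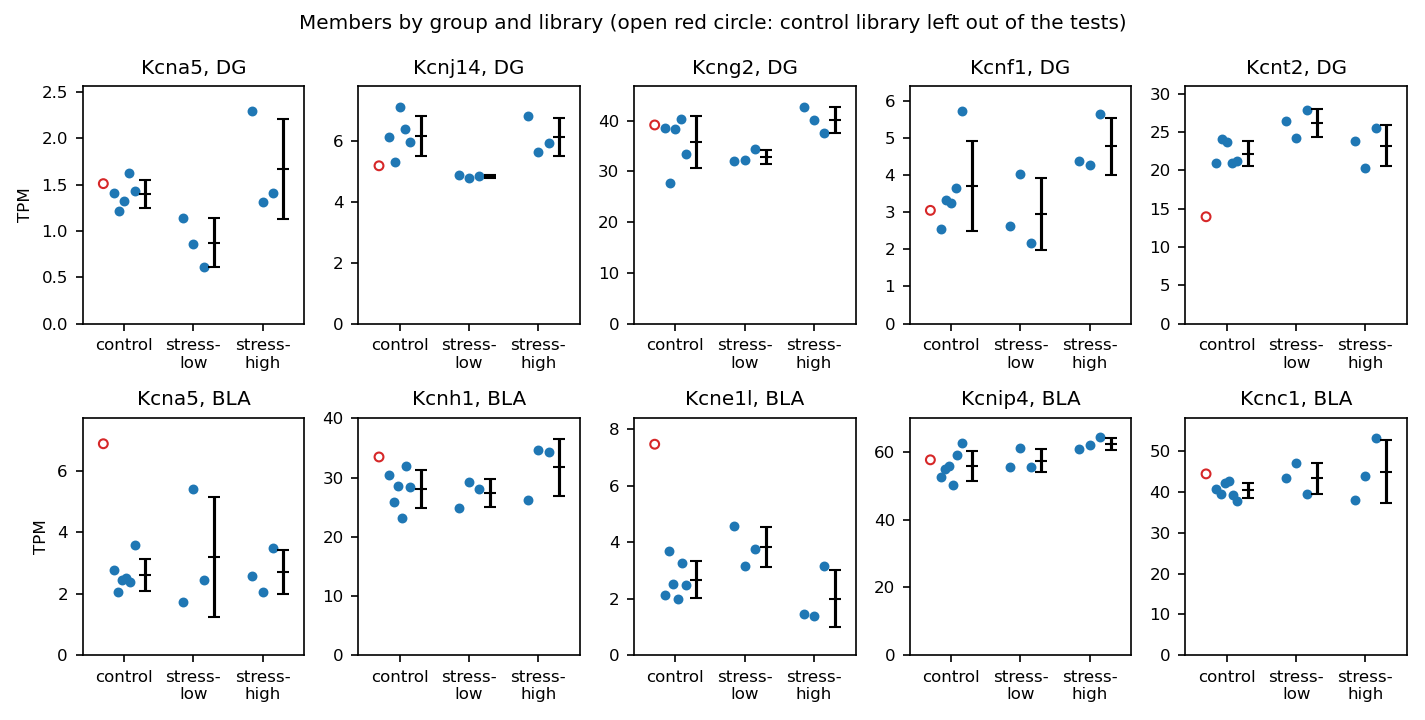
TPM of potassium channel genes in every control, stress-low and stress-high library of the DG (top) and the BLA (bottom), with group mean and SD as black bars and the left-out control as an open red circle; the axes start at 0. In the DG the stress-low points of Kcna5 and Kcnj14 lie under all others, and in the BLA every group overlaps the next.

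In the BLA no member separated any pair of groups in TPM, while 5.83% of the 14145 names compared did so between stress-low and stress-high, and 1.31% and 0.891% did so when controls were set against stress-low and stress-high. Kcnh1, an EAG pore, was at 24.8, 29.3 and 28.1 TPM in stress-low and 26.2, 34.6 and 34.4 TPM in stress-high, with a control median of 28.5 TPM (0.25, SE 0.10, edgeR adjusted p = 0.9999). One stress-high library lies inside the stress-low range. Kcne1l, of the KCNE auxiliary family, was at 4.56, 3.14 and 3.77 TPM in stress-low and 1.47, 1.37 and 3.15 TPM in stress-high (-0.91, SE 0.38, edgeR adjusted p = 0.9999), on 5 to 16 expected counts a library. Kcna2 (0.20), Kcnip4 (0.16), Kcns1 (-0.53) and Kcnip3 (0.23) came next.

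From control to stress-high BLA, the smallest p were those of Kcnip4 (0.17, SE 0.07), Kcnh1 (0.18, SE 0.08) and the Kv3 subunit Kcnc1 (0.15, SE 0.07), all at an edgeR adjusted p of 0.9999. Kcnip4 was at 50.3 to 62.6 TPM in controls and at 60.8, 62.2 and 64.4 TPM in stress-high, where 1 control reached the stress-high range. From control to stress-low BLA members with the smallest p included Kcnh4 (0.41, SE 0.19), Kcnj8 (0.38, SE 0.19) and Kcnk13 (0.48, SE 0.26).

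In 3 BLA libraries, genes of the striatum and central amygdala were high together with some members. Adora2a, a receptor of striatal neurons, was at 50.2 TPM in the left-out control, 21.1 TPM in control animal 35 and 27.8 TPM in stress-low animal 30, and at 1.65 to 4.74 TPM in the other 10. The 3 marker genes of this list that were found summed to 49.6 to 159 TPM in controls, 65.9 to 147 TPM in stress-low and 65.2 to 71.1 TPM in stress-high. In the same 3 libraries Kcna5 was at 6.89, 3.59 and 5.43 TPM against 1.74 to 3.49 TPM in the rest, and Kcnk13, a tandem-pore gene, was at 4.92, 3.53 and 3.67 TPM against 1.55 to 3.14 TPM. The part of this tissue in the BLA comparisons was not tested, but they were repeated without animals 30 and 35, an alternative chosen after seeing the data. The adjusted count stayed at 0 members, while 10 of 77 members were then at an unadjusted p under 0.05 between stress-low and stress-high (13.0%, beside 4.10% of all names), 8 higher in stress-high and 2 lower. Kcnip3, a KChIP, moved from a log2 fold change of 0.23 to 0.46 (SE 0.10, edgeR adjusted p = 0.594), Kcnk2 from 0.14 to 0.38 and Kcna5 from -0.22 to 0.35, which turned its direction. These genes were picked after their values were seen.

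**Figure D5:**
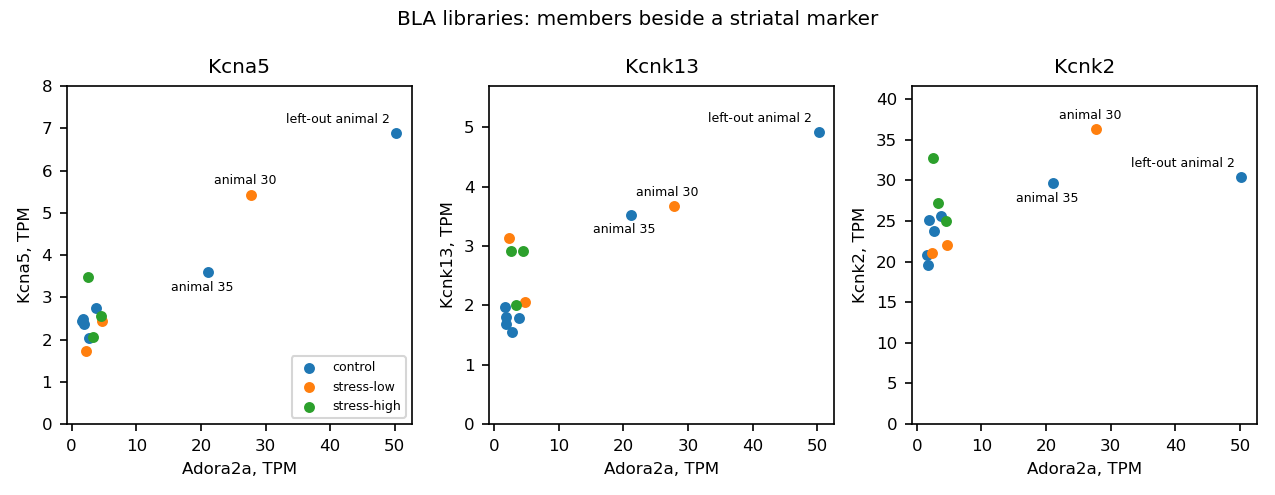
TPM of Kcna5, Kcnk13 and Kcnk2 (y axes, from 0) beside TPM of the striatal marker Adora2a (x axis) in the 13 BLA libraries, coloured by group. Animals 2 (left out), 35 and 30, at 50.2, 21.1 and 27.8 TPM of Adora2a, hold the highest Kcna5 and Kcnk13 values.

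Whether the fold change from stress-low to stress-high differed between DG and BLA was tested in 1 fit of both regions. None of the 72 members tested had an edgeR adjusted p under 0.05 (0% of all names did), and 4 had an unadjusted p under it (beside 1.77% of 13654 names): Kcna5 (difference 1.16, SE 0.48), Kcnf1 (0.62, SE 0.26), Kcng2 (0.62, SE 0.29) and Kcna2 (-0.34, SE 0.15), of which Kcng2 is named after its value was seen. The value of Kcna5 was 0.58 without BLA stress-low animal 30, the library with high Adora2a, and 0.33 with the animal as a block.

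Of the partner list, 24 genes were tested in the group comparisons and none had an adjusted p under 0.05. Among those at an unadjusted p under 0.05, Adam22, a Kv1-complex receptor of Lgi1, had log2 fold changes to stress-high BLA of 0.18 (SE 0.07) from stress-low and 0.15 (SE 0.06) from control, and Hcn3 one of 0.21 (SE 0.08) from control. In the DG, Cntn2 was at -0.21 (SE 0.09) from stress-low to stress-high.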

How the data were processed

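According to the study's methods, STAR 2.6.0a served for alignment (genome Rn5, Ensembl build 75) and RSEM 1.3.1 for gene-level estimates. The table that the authors deposited for each region gives, for 26312 gene identifiers in each library, an expected count (RSEM's estimated count, not normalized) and TPM, scaled by the authors to one fixed total a library. Per the file headers the other columns used were lengths and effective lengths in bases. No filter on low values had been applied. Of the identifiers, 5742 had no name. Identifiers of one name were summed, which gave 25360 names (3 Kcn names had more than 1 identifier: Kcna10, Kcnip2 and Kcnk6).

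Groups and animal numbers were taken from the labels. In each region the control library farthest from the rest on PC1 of log2(TPM + 1) was left out (BLA: animal 2, DG: animal 35), since the study left out 1 control a region. After rounding, expected counts went into edgeR 4.0.16 with TMM scaling, filterByExpr (min.count 10) and its quasi-likelihood test, with 3 means a region and 1 joint fit for the region difference, with Benjamini-Hochberg adjustment over all names and a threshold of 0.05. The methods name EBSeq, which was not run here. DG and BLA controls were compared on names with a mean of at least 1 TPM in either region. The test was limma 3.58.1 (trend) on log2(TPM + 0.5), with the animal as block (animals 14, 17, 28 and 32). Of these control animals, 14, 17 and 32 were labeled high and 28 low. Deviations from group means of the same animal correlated across regions, with r of 0.0989 to 0.248. Each library is 1 animal. Precision was set by 3 animals a stress group and by totals of 11656439 to 22801247 expected counts a library. Intervals of 95% are from the model fits.

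Named genes were the top member of each family and region by control TPM, up to 6 members with the smallest p in each comparison, up to 10 members each way between regions, up to 3 of the region difference and those nearest to the TPM minimum; other members, and the partner genes, are named by family or list after their values were seen. The members, the families, the partner list and the marker lists were chosen with earlier results of these data known. Of the listed genes, Etv1, Drd1a, Drd2, Mbp and Acta2 were not found by name. Scripts were tested on simulated data. Alternatives were DESeq2 1.42.0, other size factors, filters, pseudocounts, library sets, blocks, a covariate for animal number above 20, and each library left out in turn. Results for some members and listed genes are not reported here.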

Additional observations from a re-analysis of the deposited data

Results flagged for a closer look

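In a group of control libraries, 1 library stood apart from the rest by Dixon's criterion for 2 of the 101 sets of control values of named genes, where chance alone gives about 1 in 20. Kcnab2 in the BLA was at 124 TPM in control animal 28 and at 150 to 165 TPM in the other 5 controls used. Kcnk13 in the BLA was at 3.53 TPM in control animal 35 and at 1.55 to 1.98 TPM in the other 5, and this library also had 21.1 TPM of the striatal marker Adora2a.

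Of the named members, 1 had a level in a left-out library of over 1.5 times the highest value in the libraries used. Kcne1l was at 7.47 TPM in the left-out BLA control, animal 2 and at most at 4.56 TPM in the other 12 BLA libraries. Kcnn4, which is no member, was at 2.55 TPM in the same library and at most at 0.51 TPM in the other 12.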

How the results depend on the processing

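No alternative gave a member an adjusted p under 0.05 in the 6 group comparisons or in the region difference (130 fits, lowest member adjusted p 0.233), and over all names these fits called 0 to 3. With single libraries left out, the number of members called stayed at 0 in these 7 comparisons. Leaving out single libraries moved the number of members at an unadjusted p under 0.05 between 0 and 10 for stress-low against stress-high BLA (10 without stress-low animal 30, 0 without stress-high animal 19), 0 and 5 and 1 and 7 for control against stress-low and stress-high BLA, 2 and 7 for stress-low against stress-high DG, 2 and 9 and 0 and 2 for control against stress-low and stress-high DG, and 1 and 6 for the region difference. The counts over all names moved too, in the same order between 215 and 575, 364 and 530 and 276 and 483 in the BLA. In the DG they moved between 340 and 685, 580 and 1553 and 273 and 542, and for the region difference between 182 and 415. With animal number as covariate, the counts of members were 10 for stress-low against stress-high DG and 11 for control against stress-low DG. Over all names, the alternatives other than single libraries left out gave 242 to 798 and 762 to 1143 in these 2 comparisons. The replicate numbers in the sample titles do not pair the animals (r of -0.165 to -0.00473 between same-numbered stress libraries). With a replicate block, 2, 3 and 5 BLA members and 4, 3 and 1 DG members were at an unadjusted p under 0.05, with no adjusted call changed. Over all names, the alternatives other than single libraries left out gave 221 to 618, 319 to 619 and 287 to 599 in the BLA. In the DG they gave 242 to 798, 762 to 1143 and 241 to 516. These ranges are not the counts of the same single fits. The member counts with a covariate, with a block or without animal 30 are therefore not read as a result about the members. Of 732 alternative values of the named fold changes between groups, 1 turned its sign, Kcnk9 from control to stress-high DG, at -0.0124 without stress-high animal 7; the cause was not tested.

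Between regions, 58 of the 78 members of either region were called (74.4%, beside 64.5% of all names). This count includes the members of a single region, which had to be high there to be members. The count was 54 to 60 under the other settings and 53 to 56 with single animals left out. The 20 members named for their ratios kept their direction and call in all 240 alternative values. These 20, Kcng3 and Kcnh8 among them, were picked for the largest called ratios in these same data. Their stability is therefore no test of the other calls. With all mapped controls, 30 members were higher in the DG and 24 lower, beside 37 and 21; without the animal block it was 37 and 23. The DG control left out differed from the others in several members, such as Kcna2 (6.74 TPM, other controls 23.8 to 33.8). Members at a mean of at least 5 TPM numbered 53 in the BLA and 55 in the DG, and controls used alone gave 77 and 75. With 3 animals a stress group, some members under 3 TPM rest on few reads, such as Kcne1l with 5 to 16 expected counts a BLA library.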
